A study of Mus musculus with 4 samples.

Results

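The genes described here are the coreceptors of T cells, Cd4, Cd8a and Cd8b1, and 5 nuclear factors known for acting on their loci or on the lineage choice tied to them, Zbtb7b, Patz1, Satb1, Tox and Myb. They were found by gene symbol and are 8 of the 50600 genes in the deposited count tables. The set was chosen by its measured levels, because in these same libraries Cd8b1 was expressed while Cd8a was near absent. Those levels are therefore given as a description, with no test. In short, Cd4 was among the abundant transcripts of these cells, Cd8b1 was present at a low level in every library, Cd8a was close to the limit of counting, and the 5 factors lay between Cd4 and Cd8b1.

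The samples are 4 RNA sequencing libraries of mouse regulatory T cells, lymphocytes that hold back immune responses and require the factor Foxp3. They form 1 group of primary C57BL/6NJ cells, taken as 4 biosamples under a single donor record, with the age unknown and the sex not collected, and no second cell type or treatment is set against it. The labels point to a protocol for differentiating CD4+ T cells, and the headers of the tables carry the words activated and 48h, which are not explained further. The labels give the RNA as total, whereas the linked library protocol has a name that refers to polyadenylated RNA.

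The libraries held between 43821767 and 73819468 counts. Of the listed regulatory T cell markers, 10 of 10 reached 1 TPM in every library, against 22.9% of all genes and 47.2% of protein-coding genes. Their summed level ran from 4474 to 4567 TPM. The largest shares were those of Il2ra, with a mean of 1488 TPM, and Tnfrsf4, with 1190 TPM. Foxp3 stood at 289 ± 23.5 TPM (SD, n = 4), and Ikzf2 was the lowest at 13.2 ± 1.99 TPM. TPM, the unit used throughout, divides each count by the gene's exon length and scales the library to a fixed sum, so that levels of different genes can be set side by side. The libraries fell into pairs for sex-linked genes in spite of the single donor record. Replicates 1 and 2 held 172 and 145 TPM of Xist, the RNA of the silenced X chromosome, while replicates 3 and 4 held 45.1 and 45.0 TPM of the Y-linked Ddx3y, and each gene was below 1 TPM in the other pair. The biosamples therefore did not all come from a single animal, but the labels do not give the number of animals. Each p-value given here reflects the spread among 4 biosamples. That spread holds any difference between the pairs, and part of it may be technical.

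CD4 binds class II and CD8 binds class I molecules of the major histocompatibility complex, and both bring the kinase Lck to the T cell receptor. CD8 is found as a pair of alpha chains, from Cd8a, or as an alpha chain joined to a beta chain, from Cd8b1, and the beta chain needs the alpha chain to reach the cell surface. Thymocytes pass through a stage that carries CD4 and CD8 together and then keep one of them. Zbtb7b, also called ThPOK, drives the CD4 fate, and Runx3 silences Cd4 and favours Cd8 transcription in the CD8 fate. Regulatory T cells belong to the CD4 side of that choice.

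The 3 coreceptor genes lie on chromosome 6 and differ in the coding stretch that anchors Lck, which is shown because it separates the alpha chain from the beta chain at the level of sequence. The stretches were read from GENCODE M21 coding sequences on GRCm38, written 5′ to 3′ on the coding strand, 48 bases each. Capitals mark the single in-frame run of a cysteine codon, any codon, a cysteine codon and a proline codon in the whole coding sequence, the motif known to bind Lck in the tails of CD4 and CD8 alpha.
Cd4, coding bases 1312 to 1359 of 1374: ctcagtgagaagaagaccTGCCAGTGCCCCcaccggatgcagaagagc
Cd8a, coding bases 661 to 708 of 744: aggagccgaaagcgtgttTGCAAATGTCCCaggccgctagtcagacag
Cd8b1, coding bases 595 to 642 of 642: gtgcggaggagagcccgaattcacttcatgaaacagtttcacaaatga
The run began 14 codons before the stop codon in Cd4 and 21 codons before it in Cd8a. Cd8b1 held 0 such runs, and the bases shown are the end of its coding sequence, stop codon included. Of the CD8 transcripts, Cd8b1, which lacks this run, passed 1 TPM in every library and Cd8a did not. Protein was not measured.

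Cd4 (ENSMUSG00000023274.14, chr6:124864692-124888221, minus strand, mm10) was measured at 642, 592, 589 and 622 TPM in replicates 1 to 4. The libraries lay close together, with a mean of 611 ± 25.4 TPM (SD, n = 4). Of the 11593 genes that reached 1 TPM in all 4 libraries, called expressed below, 98.2% had a lower mean than Cd4. These values rest on 32703 to 51412 counts per library.

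Cd8b1 (ENSMUSG00000053044.8, chr6:71322788-71337494, plus strand, mm10) was measured at 9.24, 12.4, 11.9 and 13.3 TPM in replicates 1 to 4. Replicate 1 was the low one, and the other 3 lay within a narrow band above it. The counts behind these values were 173, 317, 383 and 297, and the mean was 11.7 ± 1.75 TPM (SD, n = 4). Among expressed genes 29.6% had a lower mean.

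Cd8a (ENSMUSG00000053977.13, chr6:71373427-71379173, plus strand, mm10) was measured at 0.239, 0.0638, 0.191 and 0.256 TPM, from 11, 4, 15 and 14 counts. All 4 libraries were below 1 TPM, and replicate 2 was the lowest. The exact 95% Poisson intervals of the counts ran from 0.120 to 0.428 TPM in replicate 1 and from 0.0174 to 0.163 TPM in replicate 2, so the intervals overlapped. The mean was 0.187 ± 0.0869 TPM (SD, n = 4). Cd8a was thus detected with counts in every library, and it was the only one of the 8 genes that was not expressed by the threshold of 1 TPM.

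The ratio of Cd8b1 to Cd8a, taken within each library on the TPM scale, was 38.6, 194, 62.6 and 52.0 in replicates 1 to 4, with a median of 57.3. The high ratio of replicate 2 rests on the 4 counts of Cd8a there. Summed over the libraries, 1170 counts of Cd8b1 against 44 of Cd8a gave a ratio of 65.2 per exon length, with a 95% interval of 48.3 to 90.2 from the exact binomial interval of the counts. Intervals of this kind cover counting error at most and leave out the spread between libraries. The ratios of replicates 1 and 2 lay outside this one. PCR copies of a fragment are not separate molecules, so the counting error itself may be larger. With only replicates 3 and 4 the median ratio was 57.3, and with only replicates 1 and 2 it was 116.

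Cd4 exceeded Cd8b1 by 69.5, 47.7, 49.4 and 46.8 times in replicates 1 to 4 on the TPM scale, so replicate 1 stood above the other 3. The median was 48.6, and the summed counts gave 51.2 with a 95% interval of 48.4 to 54.3. This interval leaves out the spread between libraries, and the ratios of replicates 1, 2 and 4 lay outside it. Cd4 exceeded Cd8a by 2433 to 9279 times, with a median of 2887, or 2762 in replicates 3 and 4 and 5980 in replicates 1 and 2. In a bulk sample a low level in all cells and a higher level in few cells cannot be told apart, and this holds for Cd8b1 and Cd8a alike.

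**Figure D1:**
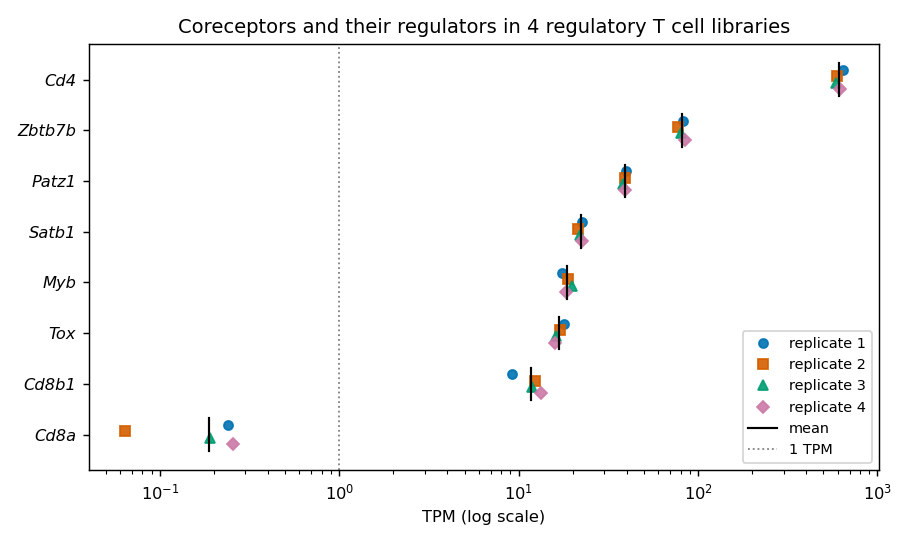
TPM of the 8 genes on a log axis, 1 symbol per library, with a black bar at the mean and a dotted line at 1 TPM. Cd4 lies at 589 to 642 TPM, Cd8b1 at 9.24 to 13.3 TPM, and Cd8a at 0.0638 to 0.256 TPM, below the line in all 4 libraries.

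The genes with the levels most like those of the coreceptors were found by the distance in log2(TPM + 1) over the 4 libraries among protein-coding genes. For Cd4 they were Ssrp1, Laptm5 and Ahsa1, with distances of 0.0657, 0.0661 and 0.0931 and means of 622, 600.4 and 605 TPM. For Cd8b1 they were Cxcr5, Rab3d and Dph6, with distances of 0.151, 0.160 and 0.169 and means of 11.4, 11.7 and 12.0 TPM. Within a distance of 0.5 lay 87 genes for Cd4 and 381 for Cd8b1, so a level like that of Cd8b1 was common.

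The Cd8b1 and Cd8a genes are neighbours on the plus strand, Cd8b1 first, with 35.9 kb between the end of Cd8b1 and the start of Cd8a. Within 50 kb of the pair the files list 11 genes, both included. Against 22.9% of all genes and 47.2% of protein-coding genes, 3 of these were expressed. Cd8b1 was one of them, beside Krcc1 at 48.1 ± 2.27 TPM on one side and Rmnd5a, which lies 9.46 kb past the end of Cd8a, at 85.5 ± 2.62 TPM on the other side (SD, n = 4 each). The gene nearest to Cd8b1, the muscle methyltransferase gene Smyd1, lies 0.555 kb from it on the opposite strand and was at 0.0774 ± 0.0592 TPM. Of the 4 genes annotated between Cd8b1 and Cd8a, Gm44175 had 16 counts over all libraries and Gm44110, Gm44111 and Gm44174 had 0. Mean levels thus stood at 11.7 TPM at Cd8b1 and 0.187 TPM at Cd8a, with 16 or 0 counts at each annotated gene between them. The counts cover annotated exons only, so transcription elsewhere in the interval was not measured.

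**Figure D2:**
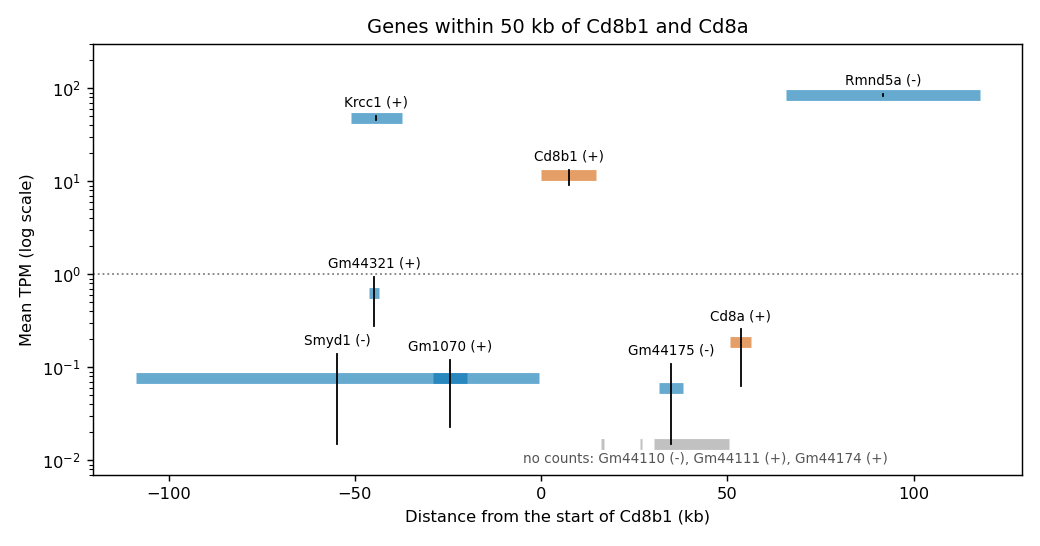
Mean TPM (log axis) of the genes within 50 kb of Cd8b1 and Cd8a, each drawn as a bar over its annotated extent in kb from the start of Cd8b1, with the strand in brackets. Thin vertical lines span the lowest to the highest library, those of 0 being drawn at the grey level of genes with no counts. Cd8b1 at 11.7 TPM and Cd8a at 0.187 TPM are orange, other genes are blue, darker where Smyd1 and Gm1070 overlap, and the dotted line is 1 TPM.

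The count of Cd8b1 was examined for reads that could come from elsewhere. None of the exon bases of Cd4, Cd8a or Cd8b1 overlapped an exon of another gene on either strand. The Cd8b1 transcript, however, shared 86 of its 1434 runs of 50 bases, or 6.00%, with transcripts of 24 other genes, whereas Cd4 and Cd8a shared 0. All of the shared runs lay at transcript bases 1332 to 1470 of 1483, in exon 6, the last one, past the end of the coding part at base 711. Fragments with several alignments were not requested in the counting, so fragments that aligned to Cd8b1 and elsewhere alike would be left out. The deposited counts give no position within a gene, and the part of this stretch in the Cd8b1 count was not tested.

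The files list 10 genes within 50 kb of Cd4, itself included, and 6 were expressed, against 22.9% of all genes and 47.2% of protein-coding genes. Lag3, an inhibitory receptor that resembles CD4 and binds class II molecules, lies 16.1 kb from Cd4 and was measured at 55.5, 61.0, 63.3 and 65.6 TPM. Its mean was 61.4 ± 4.34 TPM (SD, n = 4), well below the 611 TPM of Cd4 in every library. Gpr162, an orphan receptor gene 0.709 kb from Cd4 on the other side, was at 0.955 ± 0.194 TPM. Usp5, Cdca3, Ptms and Mlf2, which serve ubiquitin removal, the cell cycle and other general functions, ranged from 137 to 177 TPM on average.

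Zbtb7b (ENSMUSG00000028042.15, chr3:89377644-89394776, minus strand, mm10), the zinc finger repressor that directs the CD4 fate, was measured at 82.1, 77.5, 80.3 and 84.6 TPM. It was the highest of the 5 factors in every library, with a mean of 81.1 ± 2.98 TPM (SD, n = 4) above that of 77.6% of expressed genes. Runx3, its known opponent in the lineage choice, was measured at 86.6, 77.0, 75.8 and 89.3 TPM. The ratio of Zbtb7b to Runx3 within a library was 0.947, 1.01, 1.06 and 0.947, with a median of 0.977, so neither was above the other throughout. The transcript of the factor for the CD4 fate and that of the factor for the CD8 fate were therefore found at TPM levels whose ranges overlapped. Summed counts not divided by length gave a ratio of 1.11, so this comparison depends on the lengths used.

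Patz1 (ENSMUSG00000020453.17, chr11:3288874-3309083, plus strand, mm10), also called MAZR, a zinc finger factor known for repressing Cd8 and Zbtb7b, was measured at 39.7, 39.0, 38.3 and 39.1 TPM. The 4 libraries hardly differed: the mean was 39.0 ± 0.562 TPM (SD, n = 4), a coefficient of variation of 1.44% against 1.64% for counting alone. Only 1.71% of expressed genes varied less. The deposited annotation places 10.2% of its exon bases opposite another gene, and the strand setting of the counting keeps such pairs apart.

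Satb1 (ENSMUSG00000023927.15, chr17:51736187-51833290, minus strand, mm10), a chromatin organiser that acts on the coreceptor and Zbtb7b loci in thymocytes and is kept low by Foxp3 in regulatory T cells, was measured at 22.4, 21.5, 21.9 and 22.7 TPM. These values too lay close together, with a mean of 22.1 ± 0.529 TPM (SD, n = 4). Its level depends on the length used. The deposited exon length is 19027 bases, whereas its longest protein-coding transcript in GENCODE M21 has 6243, and with the longest transcript of each gene as length the mean became 49.0 TPM.

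Myb (ENSMUSG00000019982.15, chr10:21124935-21160984, minus strand, mm10), a factor for early thymocytes and for regulatory T cells, was measured at 17.4, 18.9, 19.8 and 18.5 TPM. Tox (ENSMUSG00000041272.11, chr4:6686353-6991557, minus strand, mm10), a high mobility group protein needed for CD4+ T cells to form, was measured at 17.9, 17.1, 16.2 and 16.0 TPM. Their means were 18.7 ± 0.968 and 16.8 ± 0.855 TPM (SD, n = 4 each). The ranges overlapped, and Myb was above Tox in 3 of the 4 libraries, replicate 1 being the exception.

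By mean TPM the order was Cd4, Zbtb7b, Patz1, Satb1, Myb, Tox, Cd8b1 and Cd8a. The ranges over the libraries overlapped for no neighbours in that order other than Myb and Tox. With the longest coding transcript as length, Satb1 at 49.0 TPM passed Patz1 at 45.2 TPM, Myb became 32.8 TPM and Tox 23.4 TPM, while Cd4 stayed first at 576 TPM and Cd8b1 and Cd8a stayed last at 8.51 and 0.158 TPM. Of the 8 genes 7 were expressed, against 22.9% of all genes and 47.2% of protein-coding genes in the files. The coefficient of variation over the libraries was below the median of 6.52% over expressed genes for Cd4 and all 5 factors, and above it for Cd8b1 at 14.9% and Cd8a at 46.4%, where counting alone would give 6.11% and 34.6%.

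Other factors known to act on the coreceptor loci were nearly all expressed: 21 of 22 listed genes, against 47.2% of protein-coding genes, passed 1 TPM in all 4 libraries. The median of mean levels over the list was 93.4 TPM. The highest were Tcf7 at 600 ± 11.1 TPM, which encodes TCF-1, the nucleosome remodeller Chd4 at 422 ± 26.0 TPM and the maintenance DNA methyltransferase Dnmt1 at 372 ± 24.6 TPM (SD, n = 4 each). Among lineage factors, Bcl11b, which guards T cell identity, was at 95.7 ± 3.54 TPM. Lef1, the partner of TCF-1, was at 78.5 ± 3.50 TPM, and Gata3, which acts upstream of Zbtb7b, was at 44.2 ± 1.67 TPM.

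The 3 Runx genes, whose products bind the Cd4 silencer and the Cd8 enhancers, stood far apart. Runx3 was the highest at 82.2 ± 6.77 TPM and exceeded Runx1, at 24.0 ± 1.16 TPM, by 3.30 to 3.58 times within a library. In summed counts not divided by length, Runx3 was 1.44 times Runx1. Runx2 was at 0.588 ± 0.101 TPM and was the 1 listed factor that was not expressed. On the TPM scale Zbtb7b and Runx3 were thus both above Patz1, Satb1, Tox and Myb in every library.

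**Figure D3:**
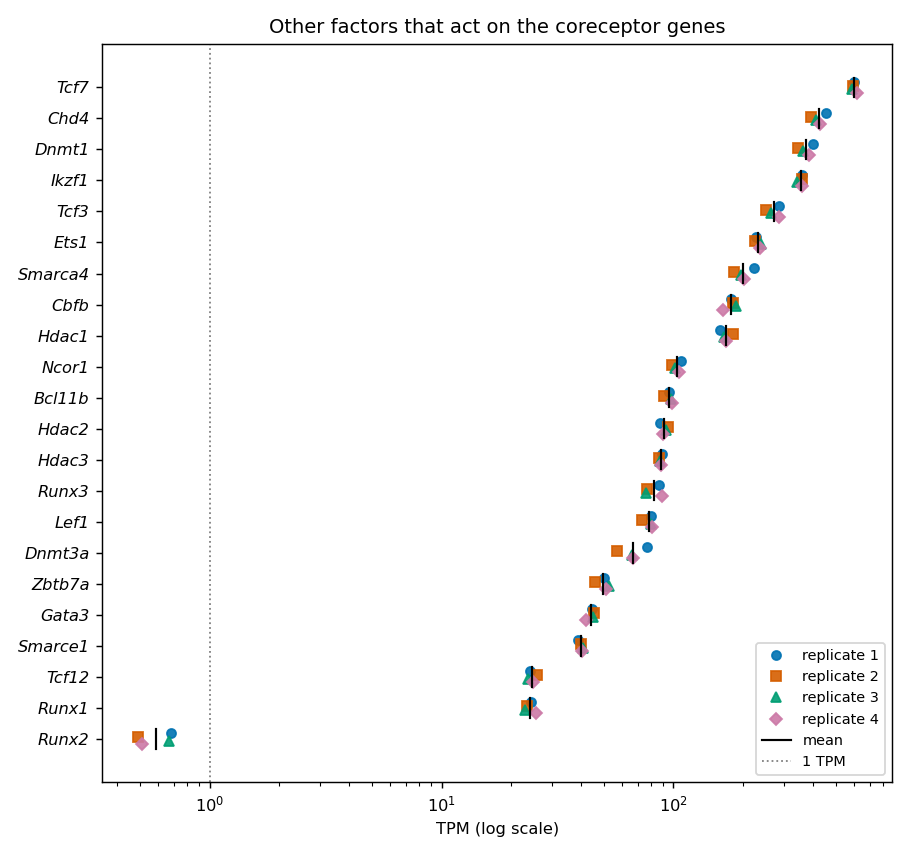
TPM (log axis) of 22 other factors known to act on the coreceptor genes, 1 symbol per library, with a black bar at the mean and a dotted line at 1 TPM. Tcf7 leads at 600 TPM, Runx3 lies at 82.2 TPM above Runx1 at 24.0 TPM, and Runx2 is the 1 gene under the line.

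Close relatives of Zbtb7b, Tox and Myb were read in the files to see which of them these cells transcribed. Zbtb7a, at 49.9 ± 2.93 TPM, accompanied Zbtb7b, while Zbtb7c had 0 counts, which allows up to 0.0502 TPM by a floor of 3 counts. Tox stood below Tox4, at 76.6 ± 2.46 TPM, and was 0.204 to 0.231 of it within a library, while Tox2 and Tox3 were at 0.172 ± 0.122 and 0.0133 ± 0.0186 TPM. The cell cycle factor Mybl2, at 57.6 ± 5.54 TPM, exceeded Myb by 2.69 to 3.65 times, and Mybl1 was at 4.81 ± 0.491 TPM (SD, n = 4 each). In all, 4 of the 7 relatives reported were expressed, against 47.2% of protein-coding genes.

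The partners of the coreceptors were abundant. All 9 listed genes of the receptor complex were expressed, led by Trac, a constant segment of the receptor, at 1053 ± 43.9 TPM, the coreceptor-bound kinase Lck at 785 ± 14.3 TPM and Trbc2 at 606 ± 22.5 TPM (SD, n = 4 each). Lck therefore stood above Cd4 in each library.

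Markers of other cells that carry Cd8b1 or Cd8a were read beside these values. Of 12 genes of CD8 and cytotoxic cells, 4 were expressed, and their summed level was 255 to 276 TPM over the libraries. Nearly all of that came from Ctsw at 184 ± 9.37 TPM and Nkg7 at 72.1 ± 9.56 TPM, with Xcl1 and Cd160 at 3.21 ± 1.39 and 3.05 ± 0.329 TPM. Effector genes that define killer cells were low: Prf1 was at 0.166 ± 0.159 TPM, Gzmb at 0.793 ± 0.685 TPM and Gzma at 0.0921 ± 0.184 TPM, while Gzmk had 0 counts, which allows up to 0.171 TPM.

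Of the 7 markers of CD4+ CD8+ thymocytes reported, Cd1d1 was the 1 expressed, at 4.24 ± 0.162 TPM, and their sum ran from 4.56 to 5.79 TPM. Others were lower: Dntt was at 0.717 ± 0.417 TPM and Rag1 at 0.0645 ± 0.0797 TPM, and Rag2 had 0 counts, which allows up to 0.0694 TPM. None of 6 genes of gamma delta T cells was expressed, led by Trdc at 0.871 ± 0.224 TPM, and their sum was 1.18 to 1.96 TPM.

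Of 6 markers of CD8a+ dendritic cells, 2 were expressed, Batf3 at 33.3 ± 2.58 TPM, which activated T cells also make, and Zbtb46 at 2.46 ± 0.248 TPM, for a sum of 32.9 to 38.7 TPM. Xcr1 was at 0.0430 ± 0.0676 TPM, and Clec9a had 0 counts, which allows up to 0.0721 TPM. Of 6 B cell genes, Cd79b was the 1 expressed, at 3.11 ± 0.466 TPM, for a sum of 3.17 to 4.01 TPM. Of 6 myeloid genes, Adgre1 was the 1 expressed, at 1.30 ± 0.328 TPM, for a sum of 1.15 to 2.23 TPM, and Lyz2 had 0 counts, which allows up to 0.180 TPM. Of the markers of other cells reported, Ctsw, Nkg7 and Batf3 thus stood above Cd8b1, at 11.7 TPM, and the others stood below it. The part of other cells in the level of Cd8b1 was not tested.

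**Figure D4:**
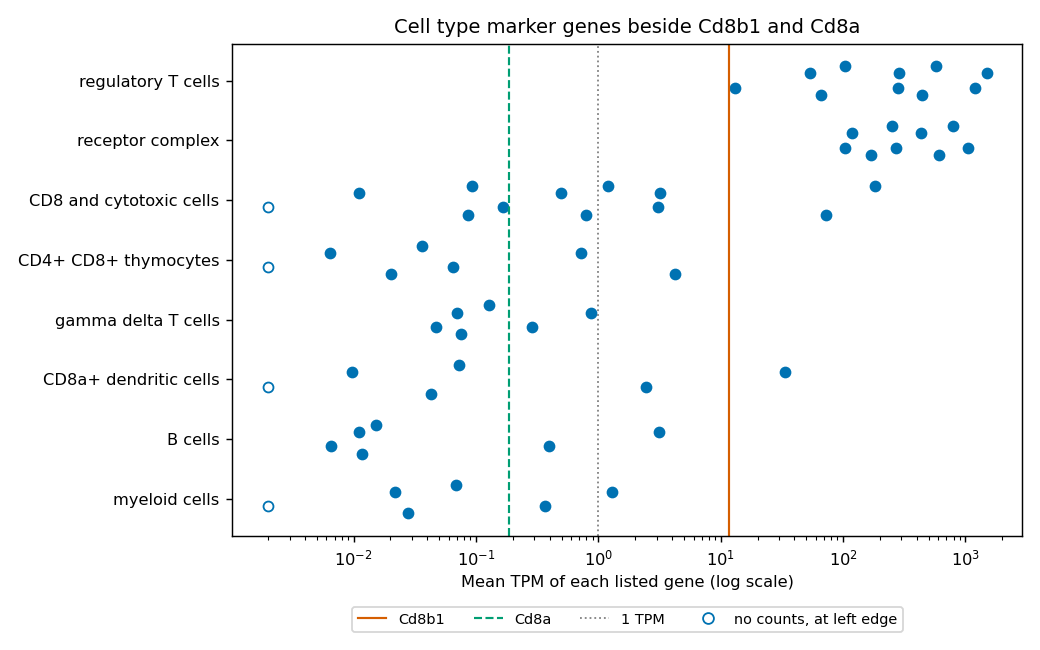
Mean TPM (log axis) of each marker gene reported, 1 point per gene, by cell type from regulatory T cells at the top to myeloid cells at the bottom, with open points at the left edge for genes with no counts. The solid line is Cd8b1 at 11.7 TPM and the dashed line is Cd8a at 0.187 TPM, and most markers outside the regulatory T cell and receptor lists lie left of the Cd8b1 line.

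Whether any of the 8 genes differed between libraries was tested with each library in turn against the other 3, a measure that the choice of the genes did not use. With edgeR's quasi-likelihood test and Benjamini-Hochberg adjustment over 12917 genes, 0 of the 7 genes tested passed an adjusted p of 0.05 in any of the 4 comparisons, and 0 reached an unadjusted p of 0.05. Over all genes tested the share called was 0.0697% for replicate 1, 0.00% for replicate 2, 0.0232% for replicate 3 and 0.00% for replicate 4, so few calls were made for any genes, and the count for these genes does not set them apart. Those numbers of calls depended on the libraries used: with 1 of the other 3 libraries left out, 23 to 341 genes were called for replicate 1, 3 to 52 for replicate 2, 16 to 21 for replicate 3 and 2 to 9 for replicate 4, and the members called stayed at 0. DESeq2 also called 0 of those it tested in each comparison. For replicates 1 and 2 DESeq2 gave an adjusted p to 6 and 4 of the genes, and to Cd8b1 in neither. Cd8a fell below edgeR's filter on low counts. DESeq2, run without that filter, put it lowest in replicate 2, with a log2 difference of -1.83 (SE 1.43) and an unadjusted DESeq2 p of 0.198, and gave no adjusted p there.

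Among the 7 genes that passed edgeR's filter, the widest difference was that of Cd8b1, at 9.24 TPM in replicate 1, against 11.9 to 13.3 TPM in the other 3 libraries. Its log2 difference was -0.45 (SE 0.23), with an edgeR p of 0.0593 and an adjusted p of 0.551. It did not pass the test, at 173 counts in that library. For the remaining 6 genes, log2 differences of a library lay between -0.14 and 0.12, the lowest and the highest both being those of Myb, in replicates 1 and 3. The test compares libraries, not conditions, and takes the lone library to vary like the rest. In each comparison the other 3 libraries included both pairs seen for sex-linked genes, so a difference between the pairs is part of their spread.

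**Figure D5:**
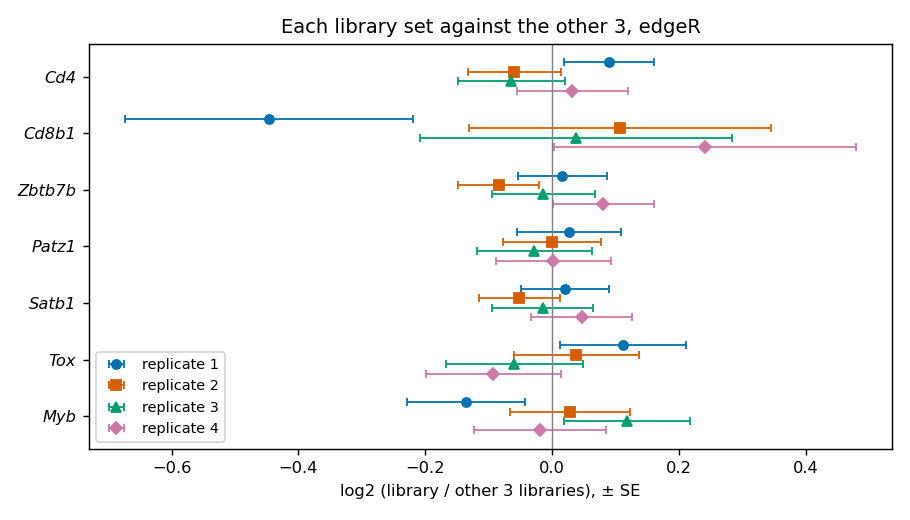
Log2 difference of each library from the other 3, with bars of 1 SE, for the 7 genes that passed the filter on low counts. Cd8b1 in replicate 1 lies furthest from 0 at -0.45 with an SE of 0.23, and none of the differences passed the adjusted threshold.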

How the data were processed

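RNA was sequenced from 4 libraries of 1 group, and replicate numbers follow the labels. Per the file headers, the authors made the deposited counts, whole fragments per gene, with featureCounts 1.4.6-p4 and GENCODE M13 (mm10, per the labels), taking exons summed per gene, paired fragments with both ends aligned and the reverse strand. Fragments with several alignments were not requested, so near-identical genes can be undercounted. The alignments' names in the headers carry the word star, with no version. The other deposited column used, per the file headers, is exon length in bases. TPM was computed here from counts and exon length over all 50600 genes, and 50376 identifiers matched GENCODE M21 symbols. Gene types and transcript sequences are from M21.

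The members and gene lists were chosen with earlier results of these data known. Named besides the members were the 3 nearest genes by level to Cd4 and Cd8b1, the 3 highest genes of each list, the Runx genes, Gata3, Bcl11b, Tcf7, Lef1, Foxp3, relatives of members, and genes within 50 kb that were expressed or nearest. Markers near 0, and Eomes, were named after their values were seen. Of the lists, 1 relative and 1 thymocyte marker are not reported here, for a reason unrelated to their values, and counts and sums leave them out.

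Libraries were compared with edgeR 4.0.16 (TMM scaling, filterByExpr for 1 group, quasi-likelihood test, Benjamini-Hochberg at 0.05) in R 4.3.3. DESeq2 1.42.0, other scalings, filters, thresholds, gene lengths and libraries left out were the alternatives. With 1 group there is no pairing of samples and no comparison of conditions. A gene with 0 counts is given a floor of 3 counts in the library where that floor is highest.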

Additional observations from a re-analysis of the deposited data

Results flagged for a closer look

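For each member, each listed gene, each gene within 50 kb of the coreceptor genes and 3 ratios between the coreceptors, the library farthest from the other 3 was compared with Dixon's 95% critical value for 4 samples. Sets with 0 counts in all 4 libraries were left out. Of 111 sets of 4 values 16 passed it. Chance flags about 1 in 20 sets of normally distributed values. That rate does not hold for the 6 of the 16 with 0 counts in 3 libraries, which pass by construction. It may not hold either for levels and ratios that rest on few counts. No member passed by its own level, and 3 ratios between members did.

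The ratio of Cd8b1 to Cd8a was 194 in replicate 2, against 38.6 to 62.6 in the other libraries, with 4 counts of Cd8a in replicate 2. The ratio of Cd4 to Cd8a was 9279 in replicate 2, against 2433 to 3092 in the other libraries, and rests on those same 4 counts. The ratio of Cd4 to Cd8b1 was 69.5 in replicate 1, against 46.8 to 49.4 in the other libraries, with 173 counts of Cd8b1 in replicate 1.

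Among factors and receptor genes, Lef1 was at 73.4 TPM in replicate 2, against 79.7 to 81.0 TPM elsewhere. Ikzf1 was at 342 TPM in replicate 3, against 357 to 359 TPM. Mybl1 was at 5.54 TPM in replicate 1, against 4.52 to 4.65 TPM, and Cd3d at 252 TPM in replicate 1, against 273 to 275 TPM. Ctla4 was at 484 TPM in replicate 2, against 425 to 434 TPM.

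Among markers of other cells, Prf1 was at 0.404 TPM in replicate 2, against 0.0771 to 0.0919 TPM, and Dntt at 1.34 TPM in replicate 4, against 0.463 to 0.543 TPM. The others had 0 counts in 3 libraries: Gzma at 0.368 TPM, Ptcra at 0.144 TPM, Tcrg-C4 at 0.188 TPM and Itgax at 0.0385 TPM in replicate 3, and Ccr9 at 0.0259 TPM and Cd22 at 0.0263 TPM in replicate 4, each from 2 to 7 counts.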

How the results depend on the processing

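Of 232 values under alternatives, 192 stayed within the spread between libraries or, for counts of genes, within 1.5 times, and 40 moved. Mean levels with libraries left out could not count as moved, since such means cannot shift by the SD of all libraries. The 192 thus include values whose label was fixed in advance, and their number is no measure of robustness. TPM over protein-coding genes gave Cd4 643, Zbtb7b 85.3, Patz1 41.0, Satb1 23.3 and Tox 17.7. Lengths of the longest coding transcripts, chosen after seeing the data, gave Cd4 576, Cd8b1 8.51, Zbtb7b 76.0, Patz1 45.2, Satb1 49.0, Tox 23.4 and Myb 32.8 TPM, 63.0 for Cd4 over Cd8b1 and 0 expressed myeloid genes. Counts not divided by length gave 132 for Cd4 over Cd8b1 and 23.4 for Cd8b1 over Cd8a, against 57.3 on the TPM scale. The latter was counted as unmoved because the SD of that ratio over the libraries was 72.3, widened by the 194 of replicate 2. At 5 TPM the expressed genes were 0 for B cells, 0 for thymocytes, 2 for cytotoxic cells, 1 for dendritic cells and 0 for myeloid cells, and at 0.5 TPM 1 gamma delta gene was expressed. Without a filter on low counts 105, 60, 35 and 16 genes were called for replicates 1 to 4, and 1 member reached an unadjusted p of 0.05 in replicate 1. DESeq2 called 16, 28 and 5 for replicates 1 to 3 and 0 for replicate 4. Leaving out 1 of the other libraries gave 23 to 341, 3 to 52, 16 to 21 and 2 to 9 calls for replicates 1 to 4. No member with an adjusted p was called under any of these settings. Leaving out 1 library put Cd8b1 at 11.2 to 12.5 TPM, Cd8a at 0.165 to 0.228 TPM and their median ratio at 52.0 to 62.6. The cause of each move was not tested beyond the length or threshold itself. Depth limits Cd8a, at 44 counts in all. No paired analysis was possible because there is 1 group.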
